A study of Rattus norvegicus with 8 samples.

Results

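The genes described here carry the rod photoreceptor's response to light and build the membrane discs that hold it. The group is made of 10 genes: Gnat1, Pde6a, Pde6b, Pde6g, Cnga1, Cngb1, Sag, Rcvrn, Rom1 and Prph2. A probe set counted for a gene when the array's annotation gave it exactly 1 gene symbol and that symbol was the gene's. This rule found 126 probe sets of 9 genes, out of 213067 probe sets and 16633 genes in all. Pde6g, the inhibitory subunit of the rod phosphodiesterase, had no probe set under its symbol and was not analysed here.

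Whole retinas came from male Brown Norway rats aged 8 weeks. One group had received transcorneal electrical stimulation (TES), in which a corneal electrode passes current through the eye, and the other a sham procedure, and both were killed 4 h later. Each group had 4 arrays of the Affymetrix Rat Gene 1.0 ST type, a 1-colour array with several probe sets along each gene. No source used here ties each array to its own animal, so part of the spread behind the p-values may be technical. The design asks which retinal transcripts differ shortly after stimulation.

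In a rod, a light-activated visual pigment switches on transducin, transducin frees the phosphodiesterase of its inhibitor, and the fall in cyclic GMP closes cation channels in the outer segment membrane. Arrestin and recoverin then help to end the response and to set its gain. The pigment sits in a stack of discs whose curved rims need the tetraspanins peripherin-2 (Prph2) and Rom1. Rods are by far the most numerous neurons of the rat retina.

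Signals are the authors' GC-RMA values on a log2 scale, so that a difference of 1 is a doubling, and the signal of a gene is the mean over its probe sets. Means carry the SD of the 4 arrays in a group, and differences are given as TES minus sham. The median signal of an array over all probe sets lay between 5.32 and 5.41. The 1100 olfactory receptor genes on the array served as a guide to low signal, with a 95th percentile of 3.10 over their mean signals. By their mean over the 8 arrays all 9 rod genes lay above it, as did 123 of their 126 probe sets. The percentile was taken over gene means and not over single probe sets, so for single probe sets it is only a rough guide. The separate rod markers Nrl, Gngt1, Grk1, Pdc and Slc24a1 also lay above it, the sixth marker, Nr2e3, not being matched in the annotation.

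The rod genes differed little between stimulated and sham retinas. For 8 of the 9 the difference in signal lay between -0.01 and 0.12 log2 units, and for Rom1 it was -0.38. None passed an adjusted p of 0.05 in limma, fitted over all genes with Benjamini-Hochberg adjustment, and the smallest adjusted p among them was 0.877. No gene on the array passed either, so that the background of calls was 0 percent. At an unadjusted p under 0.05, limma called 1 rod gene, Rom1, beside 5.57% of all genes. At the 2 thresholds of the series text, that p with at least 1.2 fold, Rom1 was again the 1 rod gene called, beside 3.59% of all genes. In none of the 9 did the TES and sham arrays fall into ranges that do not overlap, which 3.31% of all genes did. After TES 3 of the 9 were lower, beside 54.9% of all genes, a count that ran from 1 to 6 with 1 array left out, 1 without TES 2, TES 4 or sham 1 and 5 or 6 without TES 1, TES 3, sham 2 or sham 3. It was 1 with arrays centred on their median and 5 with the probe set of highest mean for each gene. The median difference of the 9 genes was 0.017, and that of all genes was -0.013. In a whole retina, fewer rods and less RNA per rod cannot be told apart.

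**Figure D1:**
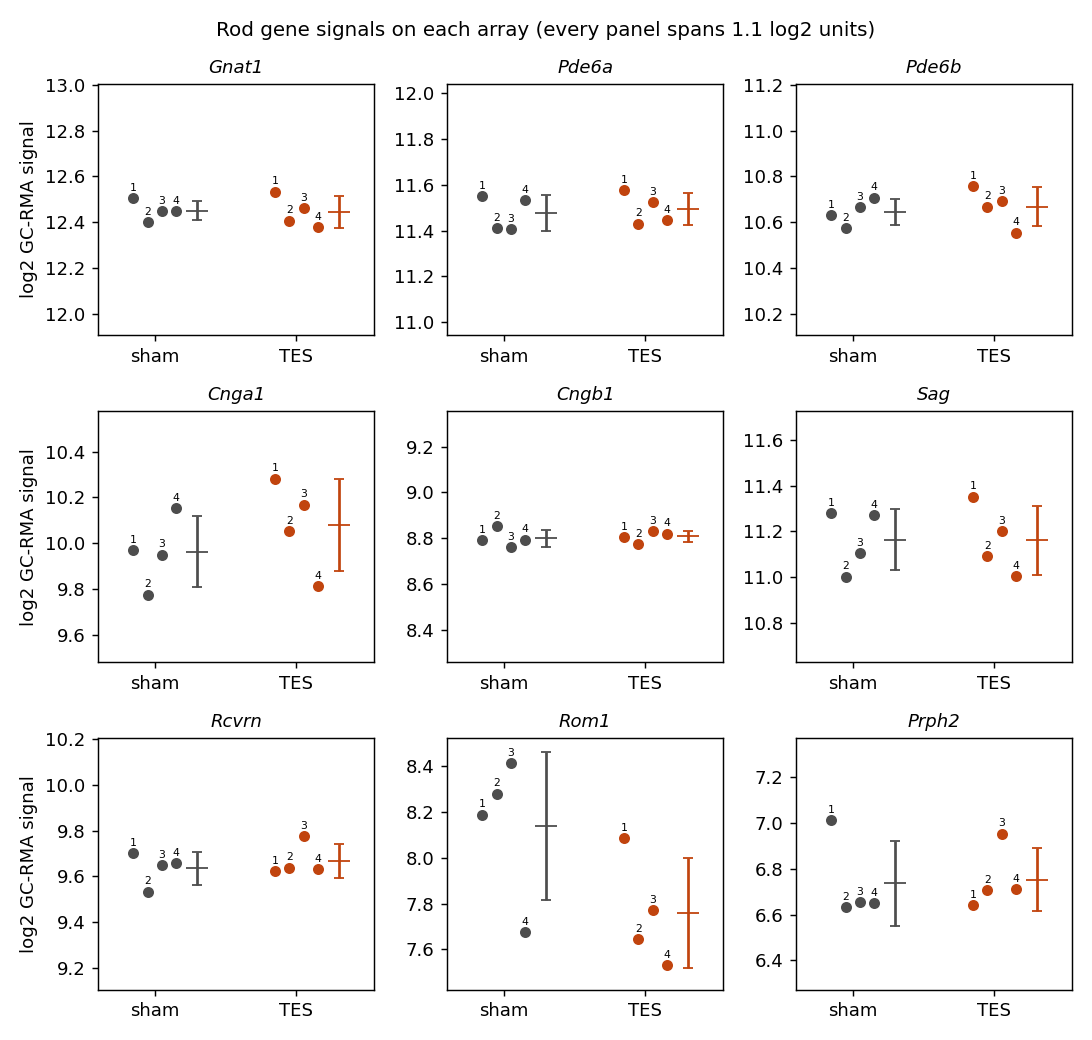
Log2 GC-RMA signal (vertical axis) of each of the 9 rod genes on the 4 sham arrays (grey) and 4 TES arrays (red), numbered by replicate, with the mean and SD of each group beside the points. Each panel spans the same 1.1 log2 units, and the groups overlap in every panel, with Rom1 the widest apart (8.14 after sham and 7.76 after TES).

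Transducin carries the signal from the visual pigment to the phosphodiesterase, and Gnat1 encodes its rod alpha subunit. Gnat1 stood at 12.53, 12.41, 12.46 and 12.38 on TES arrays 1 to 4 and at 12.50, 12.40, 12.45 and 12.45 on sham arrays 1 to 4. The 2 groups covered nearly the same range. The means were 12.44 ± 0.07 and 12.45 ± 0.04 (SD, n = 4 each), a difference of -0.0060 (95% interval -0.18 to 0.16, limma adjusted p 0.999). On a linear scale that interval runs from 11.5% lower to 12% higher after TES. Its 8 probe sets gave differences from -0.05 to 0.04, 4 of them below 0 and 4 above.

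The rod phosphodiesterase hydrolyses cyclic GMP through its catalytic subunits, encoded by Pde6a and Pde6b. Pde6a was at 11.58, 11.43, 11.53 and 11.45 after TES and at 11.55, 11.41, 11.41 and 11.53 after sham, which differ by 0.02 (95% interval -0.16 to 0.20, limma adjusted p 0.996). Pde6b was at 10.76, 10.67, 10.69 and 10.55 after TES and at 10.63, 10.57, 10.67 and 10.71 after sham, which differ by 0.02 (95% interval -0.15 to 0.20, limma adjusted p 0.994). For both subunits the TES 1 array was the highest of the 8, and the sham values lay inside or close to the range of the TES values. Each gene has 22 probe sets. Those of Pde6a differed by -0.10 to 0.11 and those of Pde6b by -0.19 to 0.30, and none passed an unadjusted p of 0.05.

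The channel that cyclic GMP holds open in the dark is made of Cnga1, which forms the pore, and Cngb1, a modulatory subunit. Cnga1 stood at 10.28, 10.05, 10.17 and 9.81 after TES and at 9.97, 9.78, 9.95 and 10.15 after sham. Here 2 TES arrays lay above every sham array, but TES 4 lay below 3 of the 4 sham arrays. The difference was 0.12 (95% interval -0.14 to 0.37, limma adjusted p 0.963), an interval that runs from 9.21% lower to 29.6% higher. The difference was 0.050 without TES 1, 0.055 without sham 2, 0.18 without sham 4 and 0.21 without TES 4. In 2 of its 8 probe sets the groups did not overlap, a state that 2.82% of all probe sets were in. Probe set 10772453 was at 10.22, 9.94, 10.02 and 9.88 after TES and at 9.79, 9.54, 9.86 and 9.73 after sham, an unadjusted p of 0.083 in limma. Probe set 10772456 differed by 0.15 with an unadjusted p of 0.256 in limma.

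By its mean signal, Cngb1 was the least variable of the 9 genes, with a within-group SD of 0.032 beside a median of 0.153 over all genes. Its mean also averages the most probe sets of the 9, and the median over all genes is not matched for that number. Cngb1 was at 8.80, 8.77, 8.83 and 8.82 after TES and at 8.79, 8.85, 8.76 and 8.79 after sham. The arrays of both groups were mixed along this narrow range. The difference was 0.0077 (95% interval -0.15 to 0.17, limma adjusted p 0.999). This mean is taken over 36 probe sets, 18 lower and 18 higher after TES, which differed by -0.34 to 0.82. Probe set 10805921 was at 6.11, 6.10, 6.65 and 6.64 after TES and at 5.94, 5.54, 5.11 and 5.66 after sham. All 4 TES arrays lay above all 4 sham arrays, with a difference of 0.82 (95% interval 0.29 to 1.34), an unadjusted p of 0.0068 and an adjusted p of 0.919 over all probe sets in limma. Probe set 10805915 went the other way, at 10.15, 10.26, 9.96 and 10.08 after TES and at 10.51, 10.60, 10.41 and 10.27 after sham. Its groups did not overlap either, and its difference of -0.34 (95% interval -0.66 to -0.01) had an unadjusted p of 0.043 and an adjusted p of 0.968 in limma. That p was 0.076 with arrays centred on their median, and it was above 0.05 without any one of TES 1, 3 and 4 or sham 1, 2 and 3, at most 0.109 (without TES 3).

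Arrestin, encoded by Sag, binds the activated and phosphorylated pigment and stops it from signalling. Sag was at 11.352, 11.091, 11.202 and 11.003 after TES and at 11.280, 11.002, 11.105 and 11.270 after sham. Both groups ran from about the same lowest to about the same highest array. The difference was -0.0023 (95% interval -0.23 to 0.22, limma adjusted p 0.999), or from 14.6% lower to 16.7% higher. Its 15 probe sets differed by -0.18 to 0.14. Recoverin, encoded by Rcvrn, is a calcium sensor that holds back the kinase of the visual pigment. Rcvrn was at 9.62, 9.64, 9.78 and 9.63 after TES and at 9.70, 9.53, 9.65 and 9.66 after sham, which differ by 0.03 (95% interval -0.15 to 0.21, limma adjusted p 0.994). The TES 3 array was high and the other 3 TES arrays lay inside the sham range. Its 3 probe sets differed by -0.01 to 0.09.

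**Figure D2:**
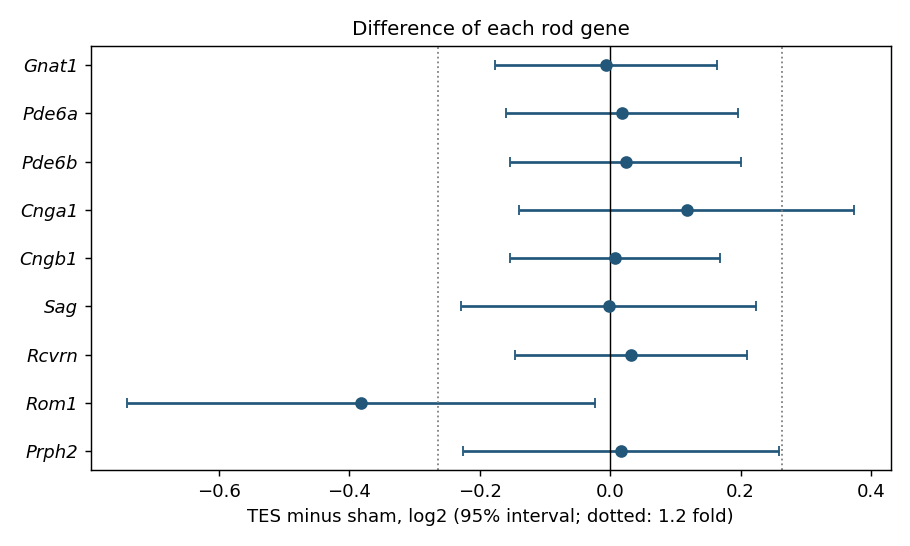
Difference in log2 signal between TES and sham (horizontal axis) of each of the 9 rod genes, with the 95% interval from limma as a bar and dotted lines at 1.2 fold in each direction. The intervals of 7 genes lie wholly within 1.2 fold, that of Cnga1 reaches 0.37, and that of Rom1 (-0.74 to -0.02) leaves out 0.

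These intervals give the differences in a gene's mean signal that the arrays leave compatible with the data, not the smallest change they could detect. For 7 of the 9 genes both ends lay within 1.2 fold, the exceptions being Cnga1 and Rom1. The interval reached between 0.16 (Cngb1) and 0.36 (Rom1) to each side, beside a median of 0.23 over all genes. Each interval is for the mean over a gene's probe sets and does not bound the fold change of the transcript. The mean of Prph2 takes in probe sets with mean signals from 1.57 to 12.68, of which 3 lay below the olfactory receptor percentile. Without those 3 probe sets the difference of Prph2 was -0.076 instead of 0.017 (limma adjusted p 0.998). Whether probe sets of low signal hide a change in a transcript was not tested.

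The disc rim genes were the part of the group in which the probe sets of 1 gene disagreed most. Rom1, which encodes a tetraspanin that assembles with peripherin-2 at the rim, was at 8.09, 7.64, 7.77 and 7.53 after TES and at 8.19, 8.28, 8.42 and 7.68 after sham. Sham 4 lay within the TES range and the other 3 sham arrays lay above it. The means were 7.76 ± 0.24 and 8.14 ± 0.32 (SD, n = 4 each), a difference of -0.38 (95% interval -0.74 to -0.02) with an unadjusted p of 0.039 and an adjusted p of 0.877 over all genes in limma. Of the Rom1 probe sets, 1 of 4 carried nearly all of it. Probe set 10728569 was at 4.04, 3.02, 2.98 and 2.42 after TES and at 4.63, 5.33, 5.55 and 3.40 after sham, with TES 1 above sham 4 and every other TES array below every sham array. Its difference was -1.61 (95% interval -2.79 to -0.42), with an unadjusted p of 0.014 and an adjusted p of 0.951 over all probe sets in limma, and from -2.05 to -1.33 with any 1 array left out. On 3 of the 4 TES arrays it lay below the olfactory receptor percentile, so the size of the difference is taken against low signal and is uncertain. The other 3 Rom1 probe sets differed by 0.09 (10728566), 0.0075 (10728567) and -0.013 (10728568). Averaged over those 3, a choice made after seeing the data, Rom1 differed by 0.027 (95% interval -0.18 to 0.24, limma adjusted p 0.994). The unadjusted call of Rom1 was also lost with arrays centred on their median (-0.35), with the median probe set (0.047), with the probe set of highest mean (-0.013), with probe sets above the olfactory receptor percentile and with the unmoderated test (-0.38 in both), and without any one of TES 2, TES 3, TES 4, sham 1, sham 2 or sham 3. With 1 array left out the difference ran from -0.54 (without sham 4) to -0.29 (without sham 3).

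**Figure D3:**
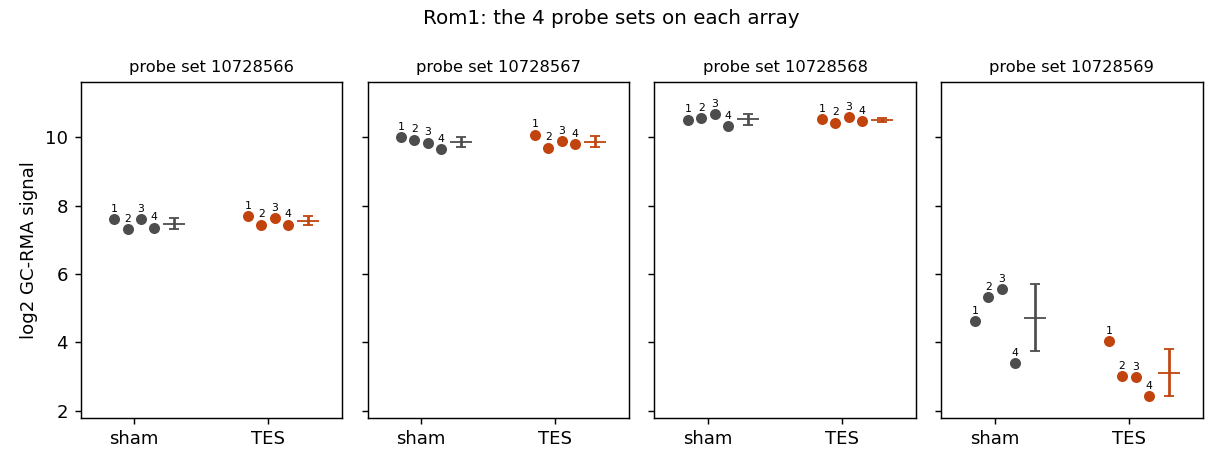
Log2 GC-RMA signal (vertical axis, shared) of the 4 Rom1 probe sets on the 4 sham arrays (grey) and 4 TES arrays (red), numbered by replicate, with the mean and SD of each group. The first 3 probe sets differ by 0.09 or less in size, and the fourth, of low signal, stands at 4.73 ± 0.97 after sham and 3.12 ± 0.68 after TES.

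Prph2 encodes peripherin-2, the rim tetraspanin that mouse rods need to form outer segments. Prph2 was at 6.64, 6.71, 6.95 and 6.71 after TES and at 7.01, 6.63, 6.65 and 6.65 after sham, which differ by 0.02 (95% interval -0.23 to 0.26, limma adjusted p 0.999). Apart from sham 1 and TES 3 the arrays of both groups lay within 0.1 log2 units of each other. The 8 probe sets of Prph2 fell into bright and dim ones. The 3 brightest, 10926373, 10926374 and 10926375, differed by 0.0016, -0.048 and 0.012. The 3 Prph2 probe sets below the olfactory receptor percentile were the only ones of the 126, and they differed by 0.10 to 0.23. Probe set 10926383, one of these, was at 3.41 on sham 1 and at 1.14 or less on the other sham arrays.

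Differences tended to be smaller at higher signal across the 126 probe sets. Of the 53 with a mean signal of at least 11, the differences ran from -0.10 to 0.11 and 96.2% were smaller than 0.1 in size, beside 82.2% of all 1643 probe sets on the array at that signal. Of the 7 rod probe sets with a mean signal under 6, the differences ran from -1.61 to 0.82. The median within-group SD was 0.111 in the brightest class and 0.836 in the dimmest, beside 0.110 and 0.531 over all probe sets of those classes. At an unadjusted p under 0.05, limma called 3 of the 126 rod probe sets (2.38%) beside 5.13% of all probe sets. These were the 1 of Rom1 and the 2 of Cngb1. None passed an adjusted p of 0.05, the smallest being 0.919, and no probe set of the array did. Groups did not overlap in 4 of the 126 (3.17%), 2 of Cngb1 and 2 of Cnga1, a share near the 2.82% of all probe sets.

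**Figure D4:**
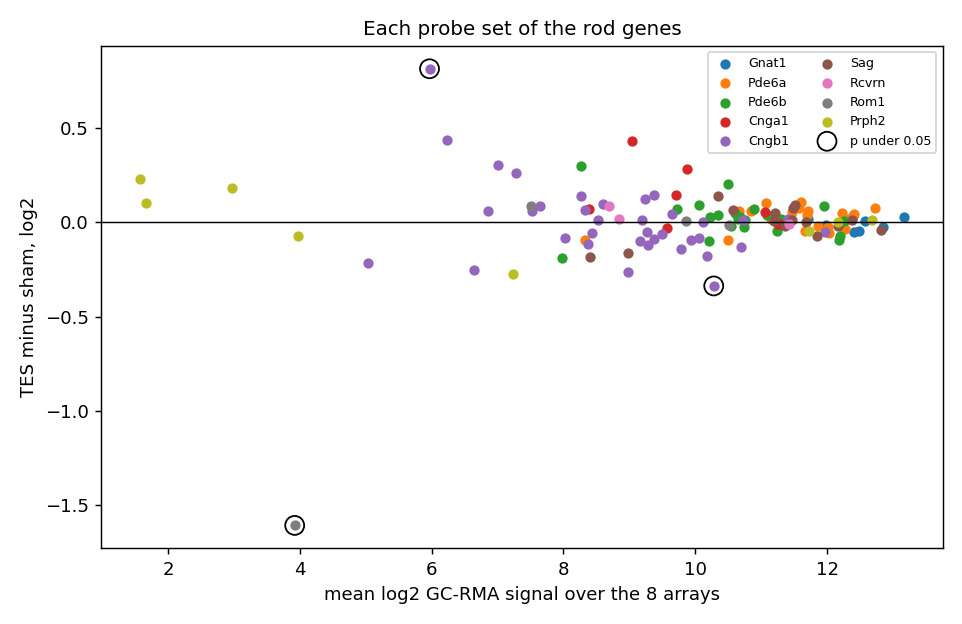
Difference in log2 signal between TES and sham (vertical axis) against mean log2 signal over the 8 arrays (horizontal axis) for the 126 rod probe sets, coloured by gene, with rings around those at an unadjusted p under 0.05. Points above a signal of 11 lie between -0.10 and 0.11, and 2 of the 3 ringed points lie below 6.

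The promoters of Rom1, Prph2 and Cngb1 are printed because Rom1 and Cngb1 held the called probe sets and Prph2 is the partner of Rom1 in the disc rim. Each is the stretch of 250 bases before the gene's start in RefSeq on the rat assembly GRCr8, read in the direction of the gene. Capitals mark TAATCC, the core that the photoreceptor factor CRX binds, and TGCTGA, one arm of the site bound by the rod factor NRL, both searched on both strands.
Rom1 (chr1:215255164-215255413, minus strand): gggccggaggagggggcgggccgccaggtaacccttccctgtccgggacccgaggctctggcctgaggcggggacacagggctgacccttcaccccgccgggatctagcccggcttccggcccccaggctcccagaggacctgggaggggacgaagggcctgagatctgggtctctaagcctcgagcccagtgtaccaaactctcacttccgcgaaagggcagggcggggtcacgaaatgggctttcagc
Prph2 (chr9:21579075-21579324, minus strand): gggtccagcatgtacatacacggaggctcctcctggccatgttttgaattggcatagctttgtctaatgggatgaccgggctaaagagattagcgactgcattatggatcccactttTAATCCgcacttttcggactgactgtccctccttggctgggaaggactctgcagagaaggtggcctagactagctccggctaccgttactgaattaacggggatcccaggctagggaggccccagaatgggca
Cngb1 (chr19:9732396-9732645, plus strand): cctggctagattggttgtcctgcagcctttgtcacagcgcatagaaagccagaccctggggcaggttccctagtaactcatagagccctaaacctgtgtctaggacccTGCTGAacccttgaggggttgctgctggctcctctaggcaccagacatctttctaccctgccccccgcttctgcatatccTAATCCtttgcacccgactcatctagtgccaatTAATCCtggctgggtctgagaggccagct
Promoters of 7 of the 10 genes were found in the RefSeq table. TAATCC was in 3 of them, beside 6.34% of all 33469 promoters of that length. It starts 133 bases before the start of Prph2, 67 before that of Pde6a, and 62 and 29 before that of Cngb1. TGCTGA was in 3 of the 7, beside 15.1% of all promoters, and starts 142 bases before the start of Cngb1, 131 before that of Sag and 45 before that of Pde6b. The windows of Rom1 and Cnga1 held neither run of letters. The 2 motifs do not overlap in these windows, and a match is a description of the sequence only.

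The arrays on which rod signals were high or low were often the same for several genes. TES 1 was the highest of the 8 arrays in 39 of the 126 rod probe sets (31.0%), beside 12.3% of all probe sets. For Sag it was the highest in 10 of 15. Sham 2 was the lowest array in 30 rod probe sets (23.8%) and TES 4 in 26 (20.6%), beside 16% and 15.5% of all probe sets. These shares of all probe sets are not matched for signal. Of all 213067, 125168 had a mean signal under 6, against 7 of the 126 rod probe sets. Whether other bright genes of the retina share the pattern was not tested. Averaged over the 8 genes other than Rom1, the signal was 10.20, 10.10, 10.20 and 10.04 on TES arrays 1 to 4 and 10.18, 10.02, 10.08 and 10.15 on sham arrays 1 to 4. The highest and the lowest arrays of each group were about equally far apart. The median signal over all probe sets was 5.33 on sham 2 and 5.32 on TES 2 and TES 4, the 3 lowest, but 5.35 on TES 1, and its part in this pattern was not tested.

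Partner genes were compared within each array, which cancels an array shift only where it is equal for both genes. A shift that changes with signal would remain. The log2 ratio of 2 genes was taken on each array and its TES and sham values were compared by an exact two-sided permutation test over the 70 assignments of the 8 arrays, for which the smallest possible p is 0.029. Of 9 pairs tested, none passed after Benjamini-Hochberg adjustment and none had an unadjusted p under 0.05. A single pair at that smallest p would not pass the adjustment over 9 pairs. The adjusted result therefore says little about any 1 pair. Within the phosphodiesterase, Pde6a minus Pde6b was 0.83 ± 0.05 after TES and 0.83 ± 0.07 after sham (exact p 0.857, adjusted 0.857). Within the channel, Cnga1 minus Cngb1 was 1.27 ± 0.20 and 1.16 ± 0.18 (exact p 0.457, adjusted 0.823). Within the disc rim, Rom1 minus Prph2 was 1.01 ± 0.30 and 1.40 ± 0.36 (exact p 0.171, adjusted 0.771), and it turned to a difference of 0.14 with the median probe set.

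Cones use counterparts of the same proteins, and 6 of the pairs set a rod gene against its cone counterpart. The largest of the 6 shifts was that of the channel subunits, Cnga1 minus Cnga3, at 6.99 ± 0.16 after TES and 6.64 ± 0.33 after sham (exact p 0.143, adjusted 0.771). Cnga3 alone was at 3.09 ± 0.19 and 3.32 ± 0.19, the first just below the olfactory receptor percentile, so the size of this shift rests on a gene not clearly above low signal. The shift was 0.35, and from 0.24 (without sham 2) to 0.50 (without sham 4) with 1 array left out. Cngb1 minus Cngb3 shifted by 0.11 (exact p 0.257, adjusted 0.771), and Sag minus the cone arrestin Arr3 by -0.13 (exact p 0.400, adjusted 0.823). The transducin pair Gnat1 minus Gnat2 shifted by -0.021 (exact p 0.657, adjusted 0.857). Pde6a and Pde6b against the cone subunit Pde6c shifted by 0.030 and 0.035 (exact p 0.743 and 0.771, adjusted 0.857 for both). The pair of Pde6g with the cone subunit Pde6h could not be tested.

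The other genes listed for rod phototransduction and the outer segment also differed little. Of 33 symbols listed, 31 were matched and stand for 30 genes. One of the 30, Gucy2d, had a mean signal of 3.29, close to the olfactory receptor percentile of 3.10. Its small difference is therefore that of a gene not clearly above low signal. Its place among rod genes of the rat rests on the list alone, and the counts that follow include it. The other 2 cyclase genes listed, Gucy2e and Gucy2f, had mean signals of 8.50 and 9.35. After TES 13 were higher and 17 lower, with a median difference of -0.0082. No gene of the 30 had an unadjusted p under 0.05 in limma or in the unmoderated test, beside 5.57% of all genes in limma, and none passed an adjusted p of 0.05. The 3 highest differences among genes with at least 3 probe sets were those of Rdh12 (0.09), a retinol dehydrogenase, Rp1h (0.08), the annotation's name for the axonemal protein gene Rp1, and Prom1 (0.07), of the disc-forming edge. The 3 lowest of such genes were those of Nxnl1 (-0.070), which encodes rod-derived cone viability factor, Gucy2e (-0.063), a guanylate cyclase that remakes cyclic GMP, and Aipl1 (-0.063), a chaperone of the phosphodiesterase. The 6 had limma adjusted p from 0.960 to 0.978. Gngt1, the rod transducin gamma subunit gene, has 2 probe sets and lay lowest of all 30. Its mean was 8.55 ± 0.21 on TES arrays and 8.67 ± 0.19 on sham arrays, differing by -0.12 (limma adjusted p 0.969). Rdh12 stood at 6.43 ± 0.04 after TES and 6.34 ± 0.12 after sham.

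Markers of tissue next to the retina and of erythrocytes were set beside Rom1, the 1 rod gene called at an unadjusted p. Lists for cells within the retina moved less. Cone, Mueller glia, bipolar and ganglion markers had median differences of 0.012, 0.038, -0.026 and -0.032. None of those genes had an unadjusted p under 0.05 in limma. Pigment epithelium markers were lower after TES in 8 of 11 genes, with a median difference of -0.23, and 4 of the 11 had an unadjusted p under 0.05 in limma, beside 5.57% of all genes. Their mean signal ran from 4.94 to 5.69 on TES arrays and from 5.31 to 5.66 on sham arrays, and 2 of the 11 lay below the olfactory receptor percentile. Of 14 lens symbols listed, 8 were matched. Lens markers were higher in 7 of these 8 genes, with a median difference of 0.47. Their mean signal ran from 3.96 to 5.67 on TES arrays and from 3.52 to 4.98 on sham arrays, and 3 of 8 lay below the percentile. Of the 8 lens genes 2 had an unadjusted p under 0.05, Mip (0.0064) and Crygc (0.013). Erythrocyte markers were higher in 5 of 5 genes, with a median difference of 0.26, a mean signal from 4.59 to 4.92 on TES arrays and from 4.17 to 4.86 on sham arrays, and 3 of 5 below the percentile. None of the 5 had an unadjusted p under 0.05, and the groups did not overlap in 1, Slc4a1, beside 3.31% of all genes. None of these genes passed an adjusted p of 0.05. Their part in the value of Rom1 was not tested.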

How the data were processed

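RNA of whole rat retina was hybridised to 8 one-colour arrays, 4 TES and 4 sham, grouped by sample title. Per the series text, the authors used GeneSpring GX to compute the deposited log2 signal of each probe set by GC-RMA, and the submitters' processing notes name GCRMA too. How arrays were normalized to each other was not given in the sources used here. The log base was taken from the values, which run from 0.549 to 13.2. Signal over each probe's own background is not known, and the number of arrays limits the precision.

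Probe sets with exactly 1 symbol in the array annotation (172924, 81.2%) were averaged per gene and array. TES was compared with sham in limma 3.58.1 (R 4.3.3; lmFit and eBayes) without covariates or a filter, over all genes and over all probe sets, with Benjamini-Hochberg adjustment and a threshold of 0.05. The series text names SAM at an unadjusted p under 0.05 and at least 1.2 fold, and those 2 thresholds were applied to limma. The fit was also run on simulated data with independent noise for each gene and array, as a check of the code only. That check does not measure how sensitive these arrays are. Promoters came from RefSeq (GRCr8). The members and lists were chosen with earlier results of these data known. Text names every member, the member probe sets with an unadjusted p under 0.05, the cone counterparts and, among other rod genes with at least 3 probe sets, the 3 highest and 3 lowest. Gngt1 and other probe sets of Cnga1, Rom1 and Prph2 were named after their values were seen. Alternatives changed the normalization, the probe set summary, a low-signal filter, the moderation and the replicate number, and left out each array.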

Additional observations from a re-analysis of the deposited data

Results flagged for a closer look

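In groups of 4 arrays, an array was taken to stand apart when its gap to the nearest other exceeded Dixon's 95% critical value, as a share of the group's range. Of 48 groups examined, 2 held such an array, and chance gives about 1 in 20. Rcvrn was at 9.78 on TES 3, above the other 3 TES arrays. Prph2 was at 7.01 on sham 1, above the other 3 sham arrays.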

How the results depend on the processing

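No rod gene passed an adjusted p of 0.05 under any alternative run, and no other rod gene listed had an unadjusted p under 0.05 under any. The count of rod genes at an unadjusted p under 0.05 with 1.2 fold was 1 (Rom1). It was 0 with median-centred arrays, the median probe set, the probe set of highest mean, probe sets above the olfactory receptor percentile, the unmoderated test or Rom1 without its called probe set (added after seeing the data), and 0 to 1 with 1 array left out. The number of rod genes lower after TES, 3, was 1 with median centring, 5 with the probe set of highest mean and 1 to 6 with 1 array left out. Rod probe sets at an unadjusted p under 0.05 numbered 3, and 2 to 3 with 1 array left out.

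The sign of a gene's difference changed under several settings. Median centring gave 0.026 for Gnat1 and 0.030 for Sag, and quantile normalization 0.0031 for Sag. The median probe set gave -0.10 for Cngb1, 0.019 for Sag, 0.047 for Rom1 and -0.097 for Prph2. The probe set of highest mean gave 0.026 for Gnat1, -0.0097 for Cnga1, -0.050 for Cngb1 and -0.011 for Rcvrn. Probe sets above the olfactory receptor percentile gave -0.076 for Prph2, and Rom1 without its called probe set 0.027. With 1 array left out, Gnat1 ran from -0.036 to 0.016, Pde6a from -0.0091 to 0.044, Pde6b from -0.0059 to 0.062, Cnga1 from 0.050 to 0.21, Cngb1 from -0.0049 to 0.025, Sag from -0.066 to 0.051, Rcvrn from -0.0043 to 0.054 and Prph2 from -0.051 to 0.11.

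Of the pairs, the median probe set gave 0.00069 for Sag minus Arr3 and 0.14 for Rom1 minus Prph2. The probe set of highest mean gave 0.033 for Gnat1 minus Gnat2, -0.020 for Pde6a minus Pde6c, -0.092 for Pde6b minus Pde6c, -0.33 for Cngb1 minus Cngb3 and 0.071 for Pde6a minus Pde6b. With 1 array left out, Gnat1 minus Gnat2 ran from -0.060 to 0.0043, Pde6a minus Pde6b from -0.036 to 0.025, Pde6a minus Pde6c from -0.020 to 0.060, Pde6b minus Pde6c from -0.045 to 0.073, Sag minus Arr3 from -0.23 to -0.029, Cnga1 minus Cngb1 from 0.030 to 0.20, Cngb1 minus Cngb3 from 0.058 to 0.17 and Rom1 minus Prph2 from -0.54 to -0.28. No pair passed under any of these, but a single pair at the smallest possible p could not pass the adjustment by itself. Beyond what the construction of each setting shows, the cause was not tested.

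Both groups number their arrays 1 to 4. Deviations of same-numbered arrays from their group means correlated across genes with r of 0.12, 0.13, 0.0056 and -0.12. TES 1 and TES 2 correlated best with the sham array of their own number, and TES 3 and TES 4 did not. Correlations this weak and mixed cannot decide whether the numbers pair the samples. With the replicate number as a block, Rom1 differed by -0.38 (limma adjusted p 0.748), the number of rod genes called was again 0 after adjustment and 1 at the thresholds of the series text, and 2 rod probe sets had an unadjusted p under 0.05, without 10805915 of Cngb1 (0.069).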
